A study of Homo sapiens with 15 samples.

Results

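NEUROD1, POU2F3, YAP1, INSM1, NKX2-1, FOXA2, SOX2, PROX1 and REST are transcription regulators that mark or set the lineage state of small cell lung cancer. These 9 genes were taken by name from the 62754 Ensembl gene IDs of a read-count table, and each matched a single ID. The table came from NCI-H69, an established human line of classic small cell lung cancer. The cells had received the solvent DMSO, CS2 (brequinar, also known as an inhibitor of the pyrimidine enzyme DHODH) or FB23-2, with 3 libraries for each treatment. The series names both compounds as inhibitors of FTO, which removes the m6A methyl mark from RNA, and calls the libraries biological replicates. All groups are of this single line, with no other treatment or genotype in the labels. The labels state neither dose nor time, and the compounds are compared as labelled. H82, another line of the series with 6 samples, was not analysed here.

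Small cell lung cancer is commonly divided by which lineage regulator its cells express. NEUROD1 marks a neuroendocrine subtype, POU2F3 a subtype that resembles the chemosensory tuft cells of the airway, and YAP1 tumours that have lost neuroendocrine features. INSM1 and PROX1 act in neuroendocrine differentiation, NKX2-1 and FOXA2 are factors of the lung and foregut endoderm, and SOX2 is a factor of progenitor cells that is often highly expressed in these tumours. REST represses neuronal genes and is typically silent in neuroendocrine cells. These factors are therefore used in this field to describe cell identity, which was not measured here beyond RNA levels.

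Counts per library summed to between 29916267 and 45022633. CPM below stands for counts scaled to the library total in the usual way, with TMM factors applied, and the floor of 3 counts equals 0.0666 to 0.101 CPM depending on the library. Levels of different genes are compared only as RPKM, the CPM per kilobase of merged exons. A gene was called at an adjusted p under 0.05 over the 19781 genes tested. Neuroendocrine identity was checked on a list of 25 marker genes, whose summed level was 6840 to 7080 CPM in DMSO libraries, 6820 to 7110 in CS2 libraries and 5690 to 6030 in FB23-2 libraries. The defining markers CHGA (604 CPM with DMSO), NCAM1 (543) and SYP (133) were all present, while CALCA was at 0 in all 9 libraries. Of the 24 markers tested, 8 were called higher and 9 lower with CS2, against 24.3% and 25.3% of all genes. With FB23-2 5 were called higher and 12 lower, against 25.4% and 26.7%. NCAM1 fell with CS2 (log2 fold change -0.85) and rose with FB23-2 (0.31), whereas CHGA fell with both (-0.26 and -0.55). Of 10 blood cell and endothelial markers the sum was at most 4.13 CPM in any library, with CD3E at 0. Of 10 fibroblast markers the sum was 246 to 284 CPM in DMSO, 334 to 384 in CS2 and 142 to 158 in FB23-2, with no overlap. It came mainly from POSTN (215 CPM with DMSO) and COL1A2 (53), with COL3A1 and DCN at 0. A list of 11 squamous, airway and general epithelial genes summed to 803 to 867 CPM in DMSO, 1090 to 1170 in CS2 and 512 to 544 in FB23-2. The sum came mainly from KRT8 (518 CPM with DMSO), EPCAM (216) and KRT18 (66.5), which are not specific to squamous or airway cells. The airway mucin MUC5AC was at 23.5 CPM in DMSO, 10.7 in CS2 and 0.594 in FB23-2. Mitochondrial genes took 5.18% to 5.69% of counts in DMSO, 7.3% to 9.05% in CS2 and 6.83% to 11% in FB23-2, so that every treated library lay above every DMSO library. The part of these markers and of the mitochondrial share in the results below was not tested. One library stood apart, FB23-2 replicate 2, with 11% mitochondrial counts against 6.83% and 6.91% in the other FB23-2 libraries. Its part in the results was not tested beyond leaving it out.

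Promoter windows differed between these genes, and between the annotated starts of NKX2-1. RefSeq windows on GRCh38.p14 matched 5 of the 9 genes, with 7 start sites between them. The 250 bases before the start are given for genes at the high, intermediate, low and silent ends of the range. SOX2 lies at chr3:181711675-181711924 (plus strand), and NKX2-1, from the downstream of its annotated starts, at chr14:36519557-36519806 (minus strand). NEUROD1 lies at chr2:181680518-181680767 (minus strand) and REST, from its upstream start, at chr4:56907650-56907899 (plus strand). Capitals mark matches on either strand to the short motifs searched.
SOX2: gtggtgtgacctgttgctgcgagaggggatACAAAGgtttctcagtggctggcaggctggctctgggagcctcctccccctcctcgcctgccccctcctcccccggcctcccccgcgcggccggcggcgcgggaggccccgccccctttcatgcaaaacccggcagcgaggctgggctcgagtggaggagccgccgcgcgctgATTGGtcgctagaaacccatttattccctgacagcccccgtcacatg
NKX2-1: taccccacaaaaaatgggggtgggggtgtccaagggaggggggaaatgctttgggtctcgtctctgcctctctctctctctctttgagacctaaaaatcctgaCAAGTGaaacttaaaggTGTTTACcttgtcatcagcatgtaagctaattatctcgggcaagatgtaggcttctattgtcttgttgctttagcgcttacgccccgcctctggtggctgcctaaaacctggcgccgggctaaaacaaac
NEUROD1: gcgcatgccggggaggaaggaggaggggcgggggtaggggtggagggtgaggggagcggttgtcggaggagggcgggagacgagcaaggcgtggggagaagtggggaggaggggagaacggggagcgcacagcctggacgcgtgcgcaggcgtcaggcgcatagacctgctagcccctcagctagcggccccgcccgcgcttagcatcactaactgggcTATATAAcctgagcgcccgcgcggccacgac
REST: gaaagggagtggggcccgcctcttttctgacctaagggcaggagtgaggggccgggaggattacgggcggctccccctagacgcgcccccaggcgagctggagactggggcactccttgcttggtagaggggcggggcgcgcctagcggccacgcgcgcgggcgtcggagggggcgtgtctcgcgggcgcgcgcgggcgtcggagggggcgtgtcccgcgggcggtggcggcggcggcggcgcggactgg
In the SOX2 window the capitals mark ACAAAG, a SOX-type motif that 13.7% of all 35116 windows hold, and ATTGG, the reverse complement of the CCAAT box (32.0%). The NKX2-1 window holds TGTTTAC, a FOXA-type motif (2.98% of windows), 130 bases before the start, and CAAGTG, the type bound by NKX2-1 itself (9.5%), 147 bases before it. The NEUROD1 window holds TATATAA (2.42% of windows) 31 bases before the start. The other motifs searched on both strands were the E-boxes CAGATG (12.2% of windows) and CAGCTG (14%), the octamer ATGCAAAT (1.63%), the SOX-type ACAATG (9.29%), the TEAD-type GGAATG (11.9%) and the TATA box TATAAA (10.7%). None of these was in the windows printed, and the REST window held none of the motifs. The REST window had 76.8% G and C and 36 CG dinucleotides, against medians of 58% and 11 over all windows, whereas the printed NKX2-1 window had 49.6% and 7. The window at the upstream NKX2-1 start, not printed, had 70.8% and 18 and held none of the motifs. These matches describe letters only, and no binding was measured.

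Each gene was placed on GRCh38 with GENCODE release 29. INSM1 (ENSG00000173404, chromosome 20, 20368121 to 20370949) and SOX2 (ENSG00000181449, chromosome 3, 181711924 to 181714436) consist of a single exon on the plus strand. FOXA2 (ENSG00000125798, chromosome 20, 22581005 to 22585455), NKX2-1 (ENSG00000136352, chromosome 14, 36516392 to 36521149) and NEUROD1 (ENSG00000162992, chromosome 2, 181673088 to 181680876) are short genes on the minus strand. PROX1 (ENSG00000117707, chromosome 1, 213983181 to 214041502) and REST (ENSG00000084093, chromosome 4, 56907876 to 56966678), both on the plus strand, span 58.3 and 58.8 kb. POU2F3 (ENSG00000137709, chromosome 11, 120236640 to 120319944) and YAP1 (ENSG00000137693, chromosome 11, 102110461 to 102233423), also on the plus strand, span 83.3 and 123 kb. Opposite-strand genes overlap 12.7% of the exon bases of NKX2-1 and 9.97% of those of YAP1, and CERKL on the same strand overlaps 7.13% of those of NEUROD1. No source used here states the strand setting of the counting, so counts of these genes may include reads of the partner.

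In DMSO the 9 genes fell into 3 classes. INSM1, SOX2, FOXA2 and PROX1 were abundant. NKX2-1 and, at a far lower level, NEUROD1 (16, 23 and 27 counts) were present above the floor of 3 counts. POU2F3, YAP1 and REST were at or near the detection limit. INSM1, a zinc finger repressor of neuroendocrine development, had 304 RPKM ± 28 (SD, n = 3) and ranked 52nd of 14037 tested protein-coding genes. SOX2 followed at 146 ± 8.8 RPKM (rank 157), FOXA2 at 62.4 ± 1.9 (rank 530) and PROX1 at 21.8 ± 1.3 (rank 2103). NKX2-1 had 2.64 ± 0.13 RPKM (rank 8877) and NEUROD1 0.176 ± 0.047 (rank 12866). No library of a gene in this order overlapped with those of its neighbour, and the order was the same with CS2 and with FB23-2.

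**Figure D1:**
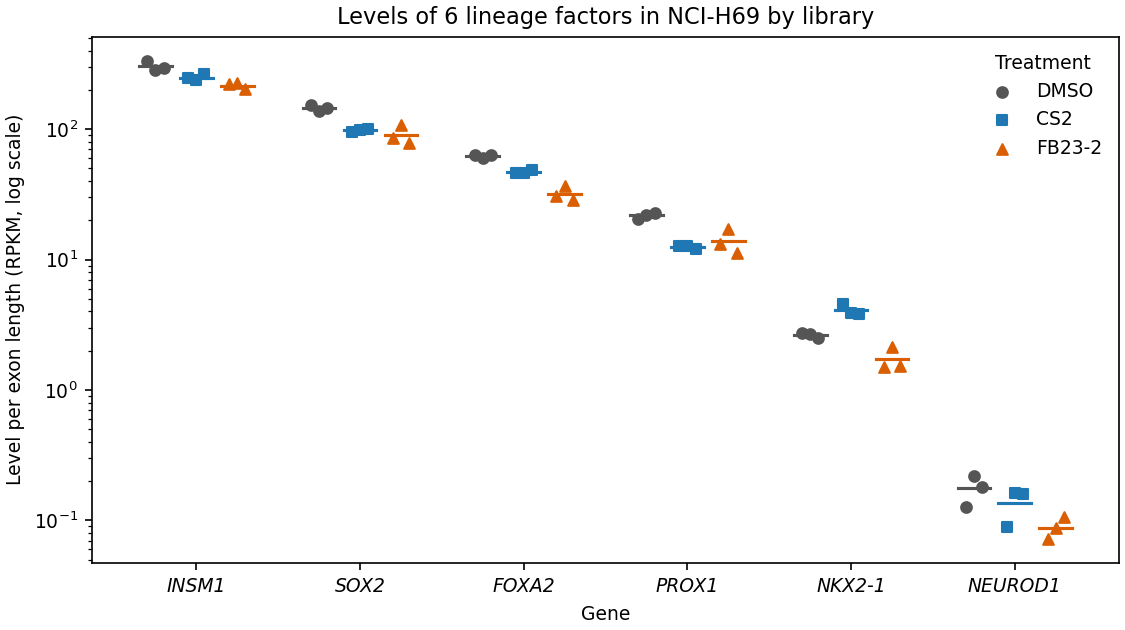
Level per exon length (RPKM, log axis) of the 6 tested genes in each of 9 libraries, with a bar at each group mean. INSM1 stood highest at 304 RPKM in DMSO and NEUROD1 lowest at 0.176, and the order of the genes was the same in all 3 treatments.

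The subtype factors of the non-neuroendocrine and tuft-like classes were not detected above the limit. YAP1, the transcriptional coactivator of the Hippo pathway, had 0 counts in all 9 libraries, which in each library allows up to 0.0666 to 0.101 CPM. POU2F3, the tuft cell regulator, had 1 count in DMSO replicate 3 and 0 in the other 8 libraries. REST had 0 counts in the 6 libraries of DMSO and CS2, and 2, 2 and 1 in FB23-2 replicates 1, 2 and 3. All of these lie under 3 counts, so no fold change is given. Counts of NOA1, which overlaps REST on the opposite strand by 23 exon bases, were 947, 1484 and 1024 in those FB23-2 libraries. These intervals and limits cover counting error only. The remaining 6 genes passed the filter on low counts and were tested.

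The first comparison asked how the lineage factors differ between CS2 and DMSO. Of the 6 tested genes, 4 fell (PROX1, SOX2, FOXA2 and INSM1), NKX2-1 rose and NEUROD1 was not called. Over all genes tested 25.3% were lower, 24.3% higher and 49.7% called in either direction. The median log2 fold change of the 6 was -0.39, against -0.0 over all genes. In bulk RNA, fewer cells expressing a gene and less RNA per cell cannot be told apart. Libraries of CS2 and DMSO did not overlap for 5 of the 6, with 4 lower and 1 higher, as for 60.6% of all genes (30.8% lower, 29.9% higher). The second comparison asked the same of FB23-2, where 5 of 6 genes fell, now including NKX2-1, and 0 rose. There 26.7% of all genes were lower, 25.4% higher and 52% called, and the median over the 6 was -0.67 against -0.0 over all genes. All 6 genes had FB23-2 libraries wholly below DMSO, as did 30.3% of all genes, with 59.8% not overlapping in either direction. PROX1, SOX2, FOXA2 and INSM1 were lower with both compounds, a pair of calls made for 10.2% of all genes. The comparisons share the DMSO libraries and are therefore not independent.

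**Figure D2:**
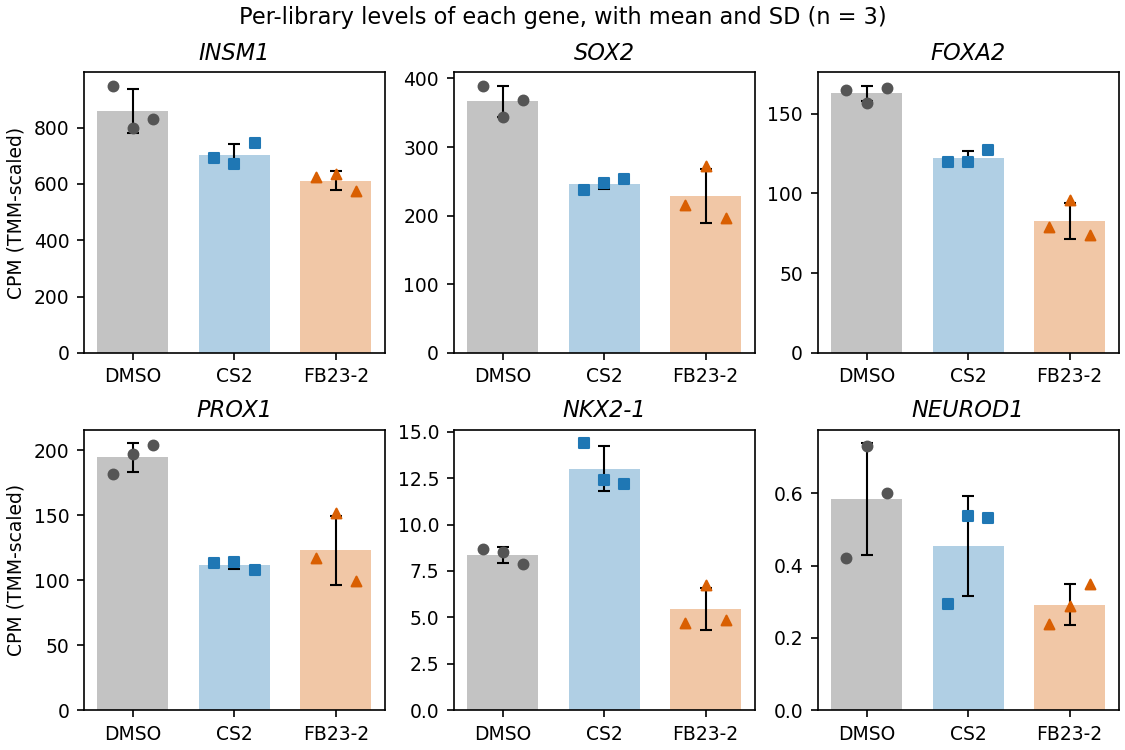
CPM of each tested gene in each library (points), with group mean (bar) and SD (line, n = 3) for DMSO, CS2 and FB23-2. INSM1, SOX2, FOXA2 and PROX1 lie below DMSO with both compounds, and NKX2-1 lies above DMSO with CS2 and below it with FB23-2.

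PROX1, a homeobox factor of neuroendocrine, hepatic and lymphatic development, had the largest decline of the 6 with CS2. In DMSO it measured 182, 197 and 204 CPM, in CS2 113, 114 and 108, and in FB23-2 117, 152 and 99.6. Every treated library lay below every DMSO library, and FB23-2 replicate 2 was the highest of the treated ones. With CS2 the level was 57.4% of that in DMSO (log2 fold change -0.80 ± 0.11 SE, adjusted p = 7.41e-06), and with FB23-2 63.2% (-0.66 ± 0.11, adjusted p = 5.48e-05). Without FB23-2 replicate 2 the FB23-2 value was -0.84. AC011700.1, an antisense transcript inside PROX1 that shares no exon base with it, fell by 1.27 ± 0.20 with CS2 and by 2.34 ± 0.21 with FB23-2 on the log2 scale. PROX1-AS1, which starts on the opposite strand near the PROX1 start, was not called with either compound (0.04 ± 0.17 and -0.24 ± 0.17).

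SOX2, the progenitor factor of the SOX family, measured 389, 344 and 368 CPM in DMSO, 238, 248 and 253 in CS2 and 215, 273 and 197 in FB23-2. All 6 treated libraries lay below the lowest DMSO library. The log2 fold change was -0.57 ± 0.09 with CS2 (adjusted p = 4.59e-05) and -0.68 ± 0.09 with FB23-2 (adjusted p = 5.8e-06), which left 67.2% and 62.3% of the DMSO level. SOX2 lies within the span of the long non-coding SOX2-OT on the same strand, with no shared exon base. SOX2-OT was 19.1 ± 1.6 CPM in DMSO and 15.9 ± 0.67 in CS2, and was not called there (-0.26 ± 0.13, adjusted p = 0.10). With FB23-2 it fell to 9.21 ± 1.9 CPM (-1.05 ± 0.13, adjusted p = 1.99e-06).

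FOXA2, a forkhead pioneer factor of foregut endoderm, was lower with FB23-2 than with CS2 (log2 difference -0.56), although the GC and span correction described below for INSM1 ended that call (-0.22, adjusted p = 0.0967). It measured 165, 157 and 166 CPM in DMSO, 120, 120 and 127 in CS2 and 79.2, 95.7 and 73.8 in FB23-2. The groups formed 3 separate steps with no overlap. FB23-2 left 51.1% of the DMSO level (log2 fold change -0.97 ± 0.09, adjusted p = 2.02e-08), and CS2 75.3% (-0.41 ± 0.09, adjusted p = 0.000569). Its relative FOXA1 was not called with CS2 (-0.19 ± 0.10, adjusted p = 0.109) and fell with FB23-2, from 118 ± 1.4 to 72.4 ± 13 CPM (-0.70 ± 0.10, adjusted p = 6.2e-06).

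INSM1 had the smallest of the called changes with CS2. It measured 949, 798 and 831 CPM in DMSO, 693, 670 and 746 in CS2 and 624, 636 and 574 in FB23-2. Treated and DMSO libraries did not overlap, although CS2 replicate 3 came within reach of DMSO replicate 2. The log2 fold change was -0.29 ± 0.08 with CS2 (adjusted p = 0.00435) and -0.49 ± 0.08 with FB23-2 (adjusted p = 2.91e-05). The call with FB23-2 was lost after a correction within each library for gene GC content and genomic span (-0.18 ± 0.08, adjusted p = 0.0713; over all alternatives adjusted p = 7.79e-10 to 0.0713), whereas that with CS2 held (-0.40). Transcripts of INSM1 are 63.1% G and C.

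NKX2-1, the lung and thyroid homeobox factor, was the only tested gene of the 9 that the compounds moved in opposite directions. It measured 8.66, 8.52 and 7.88 CPM in DMSO, 14.4, 12.4 and 12.2 in CS2 and 4.71, 6.76 and 4.87 in FB23-2. All 3 groups were separate. It rose 1.56-fold with CS2 (log2 fold change 0.64 ± 0.14, adjusted p = 0.000909) and with FB23-2 it fell to 65.6% of DMSO (-0.61 ± 0.15, adjusted p = 0.00177). Opposite calls by the compounds were made for 8.7% of all genes, and 4.52% were called higher with CS2 and lower with FB23-2. The same GC and span correction ended the FB23-2 call (-0.35 ± 0.16, adjusted p = 0.0728; over all alternatives adjusted p = 3.06e-05 to 0.0728) and stood at -0.80 without FB23-2 replicate 2.

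The neighbours of NKX2-1 on chromosome 14 did not share its pattern of calls. NKX2-1-AS1, which overlaps NKX2-1 on the opposite strand by 402 exon bases, had between 10 and 42 counts per library. It was not called with CS2 (-0.38 ± 0.33, adjusted p = 0.354) and fell with FB23-2 (-1.48 ± 0.36, adjusted p = 0.0018). The homeobox gene NKX2-8 was lower with CS2 (-1.41 ± 0.56) and higher with FB23-2 (1.12 ± 0.43), at a mean of at most 0.689 CPM. PAX9, a paired-box factor, rose with FB23-2 from 33.1 ± 3.4 to 53.3 ± 15 CPM (0.69 ± 0.15, adjusted p = 0.00144) and was not called with CS2 (0.08 ± 0.15). MBIP, a kinase-binding protein, rose with FB23-2 (0.37 ± 0.13, adjusted p = 0.0182) and was not called with CS2 (0.19 ± 0.13), while SFTA3 had 0 counts in all libraries.

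NEUROD1, the basic helix-loop-helix factor that names its own subtype, had 16, 23 and 27 counts in DMSO, 10, 16 and 16 in CS2 and 8, 12 and 12 in FB23-2. In CPM this was 0.421, 0.731 and 0.60, then 0.295, 0.537 and 0.532, then 0.239, 0.288 and 0.35. FB23-2 libraries all lay below DMSO, and CS2 libraries overlapped with it. Neither difference was called (log2 fold change -0.36 ± 0.40, adjusted p = 0.481, and -0.98 ± 0.42, adjusted p = 0.0556). The FB23-2 difference passed without DMSO replicate 1 (-1.17, adjusted p = 0.0457) and under the GC and span correction (-1.0, adjusted p = 0.0493), with adjusted p = 0.0457 to 0.185 over the alternatives. CERKL, whose same-strand exons share 236 bases with NEUROD1, fell with both compounds (-0.55 ± 0.14 and -0.60 ± 0.14).

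The direct comparison of FB23-2 with CS2 tested whether the responses differed. Of the 6 genes, 3 were lower with FB23-2 than with CS2 and 0 higher, where 30% of all genes were lower, 29.7% higher and 59.6% called. The libraries of the compounds did not overlap for these 3 genes, nor for 62.9% of all genes (31.6% lower). NKX2-1 differed most, by -1.25 ± 0.15 (adjusted p = 4.49e-07), and FOXA2 by -0.56 ± 0.09 (adjusted p = 1.56e-05). INSM1 differed by -0.20 ± 0.08 (adjusted p = 0.0315). It was no longer called when CS2 replicate 3 was left out (-0.15, adjusted p = 0.15), nor without FB23-2 replicate 1 (-0.21, adjusted p = 0.0509) or FB23-2 replicate 3 (-0.15, adjusted p = 0.159). The INSM1 difference turned to 0.21 (adjusted p = 0.0341) under the GC and span correction.

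For SOX2 and PROX1 no difference between the compounds was called. SOX2 differed by -0.11, with an interval of 2 SE on either side from -0.30 to 0.08, and PROX1 by 0.14, from -0.08 to 0.36. These intervals do not show that the compounds act alike. Single libraries decided both: SOX2 was called lower with FB23-2 without FB23-2 replicate 2 (-0.26, adjusted p = 0.0028), and PROX1 higher without FB23-2 replicate 3 (0.28, adjusted p = 0.0244). Without FB23-2 replicate 2 the PROX1 difference was -0.04. NEUROD1 was not called (-0.62 ± 0.44, adjusted p = 0.233).

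**Figure D3:**
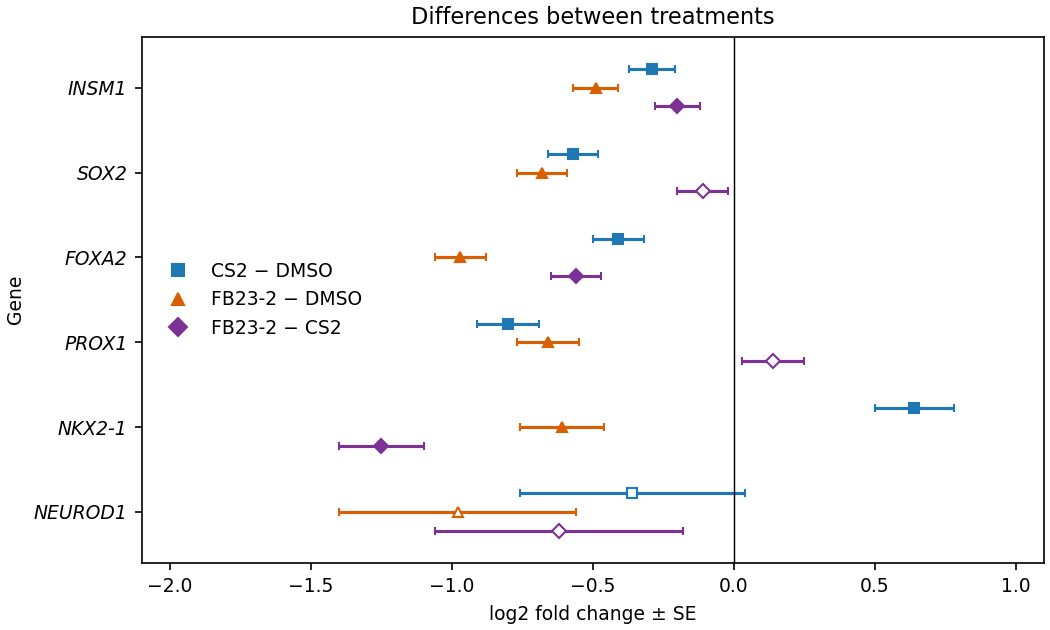
Log2 fold change ± SE of the 6 tested genes for CS2 minus DMSO (squares), FB23-2 minus DMSO (triangles) and FB23-2 minus CS2 (diamonds), with filled symbols for called differences. NKX2-1 lies at 0.64 with CS2 and -0.61 with FB23-2, the other called values against DMSO are all negative, and the INSM1 difference between the compounds (-0.20) turned to 0.21 under the GC and span correction.

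The tested genes are mostly short, and the median response of all genes differed between classes of gene span. NEUROD1, INSM1, NKX2-1, FOXA2 and SOX2 span 7.79, 2.83, 4.76, 4.45 and 2.51 kb. Over the 2692 tested protein-coding genes spanning up to 10 kb the median log2 fold change was 0.14 with CS2, where 18.5% were lower, and -0.16 with FB23-2, where 36.9% were lower. INSM1, FOXA2 and SOX2 thus lay below the median of their span class with both compounds. PROX1 lay below that of the 2429 genes of 50 to 100 kb (-0.02 with CS2 and 0.09 with FB23-2). FTO acts on m6A, whose core sequence in RNA includes GGACU. The longest protein-coding transcript of NKX2-1 holds 4 copies of GGACT on the transcript strand (1.55 per kb) and that of SOX2 3 (1.19 per kb), against a median of 0.934 per kb over 14028 tested genes. INSM1 holds 1 (0.353 per kb), PROX1 4 (0.471 per kb), NEUROD1 3 (1.05 per kb) and FOXA2 0. No methylation was measured here.

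Other regulators of neuroendocrine and neuronal fate had more members called lower than higher with either compound. Over all genes tested, 25.3% were lower and 24.3% higher with CS2, and 26.7% lower and 25.4% higher with FB23-2, and the counts of each list below stand beside these shares. Of 37 tested genes in this list, 25 fell and 3 rose with FB23-2, with a median log2 fold change of -0.55, and 14 fell and 7 rose with CS2, with a median of -0.25. Among protein-coding genes spanning up to 10 kb, 36.9% were lower with FB23-2 and 18.5% with CS2. The list was not matched for gene span or GC content, and their part in these counts was not tested. It pools activators with ID1, ID2, ID3 and ID4, inhibitors of basic helix-loop-helix factors, which were all called lower with FB23-2 (-1.06, -0.89, -0.5 and -0.26). Some genes called lower with FB23-2 were at a low level in DMSO, such as NEUROG3 (0.581 CPM) and OTX2 (0.37). The counts therefore do not describe activators of these fates alone. TCF4, an E protein that pairs with basic helix-loop-helix factors, fell from 594 ± 39 CPM to 352 ± 28 with CS2 (-0.76 ± 0.09) and 268 ± 29 with FB23-2 (-1.15 ± 0.09). The related E protein TCF12 fell by 0.41 ± 0.08 and by 0.35 ± 0.08. SOX4, a SOX factor of progenitor cells, rose slightly with CS2 (0.20 ± 0.07, adjusted p = 0.028) and fell with FB23-2 (-0.76 ± 0.07). ONECUT2, a homeobox factor, went the other way, with 168 ± 8.8 CPM in DMSO, 164 ± 31 in CS2 (not called) and 389 ± 84 in FB23-2 (1.21 ± 0.16, adjusted p = 5.65e-05).

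With REST at or near 0, genes that it is known to repress were expressed in all groups. The summed level of 26 such genes was 3150 to 3210 CPM in DMSO, 3670 to 3890 in CS2 and 3190 to 3510 in FB23-2. Of the 24 tested, 11 rose and 6 fell with CS2 (median 0.23), and 10 rose and 9 fell with FB23-2 (median 0.06). The share that fell with CS2 was close to the 25.3% of all genes. CHGB, a granin of secretory vesicles, rose with CS2 from 212 ± 0.79 to 546 ± 71 CPM (1.37 ± 0.09) and with FB23-2 to 259 ± 23 (0.29 ± 0.09), whereas the granin CHGA fell with both (-0.26 ± 0.07 and -0.55 ± 0.07). SYT4, a synaptotagmin, rose with both (0.44 ± 0.09 and 0.47 ± 0.09), and CPLX2, a complexin of vesicle release, rose with CS2 (0.29 ± 0.07) and fell with FB23-2 (-0.34 ± 0.07). Of 11 corepressors and splicing regulators of REST, 3 rose and 4 fell with CS2 (median 0.01), and 1 rose and 4 fell with FB23-2 (median -0.17), where all genes gave 24.3% higher and 25.3% lower with CS2 and 25.4% and 26.7% with FB23-2. The histone methyltransferase EHMT2 rose with CS2 (0.57 ± 0.07) and fell with FB23-2 (-0.54 ± 0.07), as did the demethylase KDM1A (0.18 ± 0.07 and -0.35 ± 0.07). HDAC2 and RCOR1 did not share this pattern. HDAC2 was not called with either compound (0.02 ± 0.08 and -0.04 ± 0.08). RCOR1 fell with CS2 (-0.25 ± 0.08) and was not called with FB23-2 (-0.11 ± 0.08). SRRM4, a splicing factor known to divert REST transcripts to a truncated form and named after its values were seen, was 4.18 CPM in DMSO and fell with CS2 (-0.57). Its value with FB23-2 is not reported here.

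Genes around POU2F3 and YAP1 were read in the same way. Of 12 tested tuft cell genes, 3 fell and 1 rose with CS2 (median -0.58), and 6 fell and 0 rose with FB23-2 (median -0.65). Of all genes 25.3% fell and 24.3% rose with CS2, so the share of tuft cell genes that fell with CS2 was near the background, and 26.7% fell and 25.4% rose with FB23-2. Several tested genes of this list were at a low level in DMSO, such as ASCL2 (1.81 CPM), BMX (1.5), SH2D7 (0.433) and PTGS1 (0.331), which limits what the medians show. The tuft channel gene TRPM5 was at 0.0864 CPM in DMSO. SOX9, which many epithelia also express, fell from 39.0 ± 3.1 CPM to 20.3 ± 1.7 with CS2 (-0.94 ± 0.10) and 22 ± 2.3 with FB23-2 (-0.83 ± 0.10). POU2AF3, a coactivator of POU2F3, was at 6.83 ± 0.97 CPM in DMSO, rose with CS2 (0.54 ± 0.16, adjusted p = 0.00831) and fell with FB23-2 (-0.69 ± 0.17, adjusted p = 0.00156), while KIT was not called with either. Of 15 tested YAP partners and targets, 3 rose and 3 fell with CS2 (median -0.02), and 6 rose and 3 fell with FB23-2 (median 0.15), beside the same shares of all genes. TEAD1, a DNA-binding partner of YAP1, fell with CS2 from 537 ± 41 to 277 ± 12 CPM (-0.96 ± 0.08) and was 472 ± 43 with FB23-2 (not called, adjusted p = 0.0549). After TEAD1 the most abundant tested genes of the list were AMOTL1, LATS1 and MOB1A, and none was called against DMSO with either compound. With CS2 and FB23-2 AMOTL1 changed by -0.08 ± 0.07 and -0.05 ± 0.07, and LATS1 by -0.13 ± 0.09 and 0.09 ± 0.09. MOB1A changed by 0.11 ± 0.09 and 0.15 ± 0.09. The next genes were named after their values were seen, and the tested ones were picked from genes that rose with CS2. Of the 3 genes of the list that fell with CS2 only TEAD1 is named. The 3 that fell with FB23-2 are not named. WWTR1, the paralog of YAP1, and the YAP targets CCN2 and ANKRD1 had group means of at most 0.215, 0.13 and 0.0074 CPM and were not tested. Other low-level genes of the list rose: CRIM1 with both compounds, from 1.88 ± 0.28 CPM to 3.96 ± 0.54 with CS2 (1.07 ± 0.20) and 6.92 ± 1.3 with FB23-2 (1.87 ± 0.19). AJUBA, a LIM-domain protein of the Hippo pathway, rose from 0.722 ± 0.11 CPM to 1.41 ± 0.65 with CS2 (0.94 ± 0.30, adjusted p = 0.0124) and 9.11 ± 1.6 with FB23-2 (3.64 ± 0.26, adjusted p = 9.51e-10). The YAP target CCN1 rose with CS2 to 1.4 ± 0.21 CPM (1.05 ± 0.32, adjusted p = 0.0101) and was not called with FB23-2 (-0.22 ± 0.34).

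Lung and foregut endoderm factors and targets, the genes of the tissues where NKX2-1 and FOXA2 are known to act, came next. Of 24 genes in this list 10 passed the filter on low counts, and 3 had 0 counts in every library. With CS2 2 of the 10 rose and 3 fell (median 0.22), near the 24.3% and 25.3% of all genes. With FB23-2 3 rose and 5 fell (median -0.26), where 25.4% and 26.7% of all genes did. ABCA3, a lipid transporter of lung surfactant, was the most abundant and fell with CS2, from 358 ± 16 to 291 ± 32 CPM (-0.30 ± 0.08, adjusted p = 0.00349). FOXP2, a forkhead factor, fell with CS2 (-1.49 ± 0.14) and less so with FB23-2 (-0.35 ± 0.13), with a difference of 1.14 ± 0.14 between the compounds (adjusted p = 9.19e-07).

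**Figure D4:**
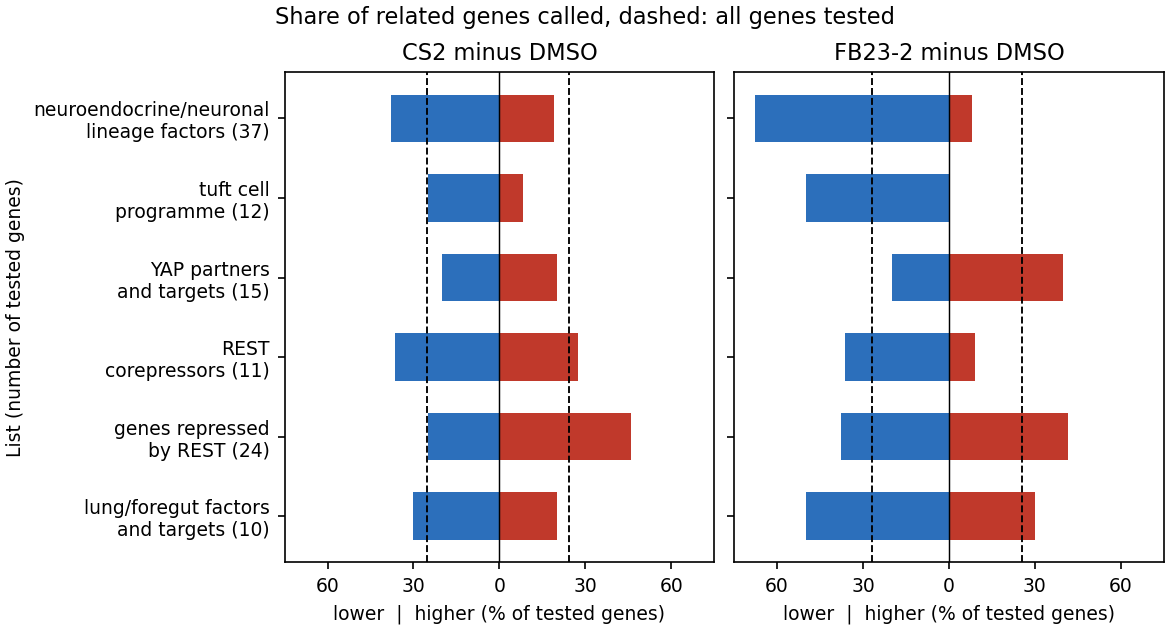
Percent of tested genes in each list called lower (left, blue) or higher (right, red) than DMSO, for CS2 and FB23-2, with dashed lines at the percent of all 19781 genes. Of the 37 neuroendocrine and neuronal lineage factors, 25 were lower and 3 higher with FB23-2, against 26.7% and 25.4% of all genes. With CS2 14 were lower and 7 higher, against 25.3% and 24.3%.

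The genes whose levels were most like those of each lineage factor were found by Pearson's r of log2 CPM over the 9 libraries among 13327 genes. The libraries cluster by treatment, so r mainly reflects the 3 group levels and is only a description. Those most like FOXA2 included SAMD1 (r = 0.993) and MACROH2A1 (0.990). NKX2-1 was closest to the homeobox gene HOXC10 (0.987), which rose with CS2 (0.57) and fell with FB23-2 (-0.52), then to NRM (0.987) and EPN1 (0.985). SOX2 was closest to GNL3L (0.989), HNRNPUL1 (0.978) and TPGS2 (0.978). PROX1 was closest to LIG3 (0.987), TOX (0.981) and ANKRD18B (0.979), and INSM1 to LIMK1 (0.972), ZNRF1 (0.970) and GLRX5 (0.967). For NEUROD1 (PBK, SYNCRIP and ECHDC1, r = 0.947 to 0.981) the member itself had only 8 to 27 counts per library.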

How the data were processed

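Libraries of messenger RNA from NCI-H69 were made from TRIzol-isolated total RNA with the Hieff NGS Ultima Dual-mode kit, per the labels' protocols. What the authors deposited is a table of raw counts, whole numbers for each gene ID, and the submitters' processing notes name hg38. For the aligner, counting tool, annotation and strand setting: not given in the sources used here. Columns named FB23 were taken as FB23-2, the only matching treatment. The 62754 gene IDs gave 42343 symbols, and GENCODE release 29 placed 58261 of them.

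The fit used edgeR 4.0.16 under R 4.3.3: filterByExpr (minimum count 10, minimum total 15), TMM scaling and a single robust quasi-likelihood fit of all 9 libraries with group means, which tested 19781 genes with Benjamini-Hochberg adjustment. The SE is the log2 fold change divided by the square root of F. P-values measure the spread between libraries called biological replicates. No library was a duplicate: within groups, chi-square divided by its degrees of freedom was 4.16 or more. The fit was tested on simulated data with known changes. Promoter windows and levels per length were computed in Python 3.11.15.

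All 9 lineage genes are named. Of other lists, up to 4 tested genes with the highest mean CPM are named, and for each tested gene the 3 most alike with a mean of at least 1 CPM, by log2(CPM + 0.1). Results for some of these are not reported here. Genes and lists were chosen with earlier results of these data known. Alternatives tried were scaling by RLE or by total, testing every gene with a count, testing only genes averaging 1 CPM or more, DESeq2 1.42.0, fitting the 2 groups compared by themselves, leaving out each library, a block for replicate number, an offset for GC content and span, block and offset together, and leaving out mitochondrial genes.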

Additional observations from a re-analysis of the deposited data

How the results depend on the processing

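The alternatives left the count of called genes with CS2 at 5 in every setting tried, with 4 lower and 1 higher. With FB23-2 it ranged from 4 to 6, and between the compounds from 2 to 4. Of 339 single-gene values under the alternatives, 326 kept their side of the threshold with no reversal of a called value. Settings that left out a library of a group not compared barely moved the fold change, so they tested it little. Among the 326, the PROX1 difference between the compounds, not called at 0.14, took the other sign in 3 settings, without being called (-0.05 with the GC and span correction, -0.06 with the block added, -0.04 without FB23-2 replicate 2). INSM1 between the compounds reversed to 0.21 under the GC and span correction, also with the replicate block added (0.21), and its call was lost without CS2 replicate 3, FB23-2 replicate 1 or FB23-2 replicate 3. With FB23-2 against DMSO the INSM1 call was lost under that correction (-0.18), also with the block (-0.19), and that of NKX2-1 under the correction alone (-0.35). FOXA2 lost its call between the compounds under the correction alone (-0.22). The cause was not tested. The labels do not say that library numbers pair the samples. Deviations of same-numbered libraries correlated between -0.03 and 0.167 in 9 pairs, and in 9 of 18 cases a library correlated best with its own number. Each case offered 3 libraries to match, so some best matches would arise without any pairing. Same-numbered pairs with a DMSO library gave only -0.03 to 0.021. Between CS2 and FB23-2 the same-numbered pairs gave 0.167, 0.123 and 0.049, each the best match of both its libraries, which is a hint of pairing from the data and not from the design. The replicate block alone called 5, 5 and 3 genes for CS2, FB23-2 and between the compounds and changed no call of the 6 genes. Levels at or under 3 counts per library (YAP1, POU2F3, REST) cannot be compared between treatments at this depth. NEUROD1, with 8 to 27 counts per library, can show only large differences. NEUROD1 has no value where a mean of 1 CPM was required.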
